A study of Homo sapiens with 9 samples.

Results

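The human ATP-binding cassette (ABC) transporter genes were examined in SKMEL-147 cells, a human melanoma cell line, after CRISPR-Cas9 targeting of PHF8. A gene was taken as a member when its symbol was ABC followed by 1 letter from A to G and a number, and pseudogenes and antisense genes were left out. This rule gave 45 members of the 57736 genes listed, and left out 16 pseudogene or antisense rows. RNA-seq of total RNA was done on 9 libraries in 3 groups of 3 biological replicates (A, B and C). The control group (sgScr) carried a scrambled guide RNA, and the other groups carried 1 of 2 guide RNAs against PHF8 (sgPHF8-1 and sgPHF8-3). As the methods describe the guide experiments, cells of all groups, controls included, stably express Cas9 after blasticidin selection and receive the guide, driven by the U6 promoter, from a lentivirus that also carries a GFP reporter. The comparisons therefore describe transduced cultures of 1 line, in which edited and unedited cells are measured together.

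ABC proteins bind and hydrolyse ATP through a conserved nucleotide-binding domain, and most use that energy to move a substrate across a membrane. Subfamily A carries phospholipids and sterols, subfamilies B, C and G include the pumps known for multidrug resistance, and subfamily D brings fatty acyl-CoA into peroxisomes or cobalamin out of lysosomes. Subfamilies E and F have no membrane-spanning part and act on ribosomes. In melanoma the family is studied for drug efflux, with ABCB5 known as a marker of a chemoresistant subpopulation. PHF8 is a histone demethylase that removes repressive methyl marks and binds trimethylated H3K4 at active promoters.

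The libraries held between 17366120 and 19838142 counts. PHF8 itself had 655, 606 and 634 normalized counts in sgScr, 564, 571 and 565 in sgPHF8-1 and 399.8, 387 and 434 in sgPHF8-3. The 3 groups did not overlap, and the log2 fold change against sgScr was -0.16 ± 0.05 (SE) for sgPHF8-1 (edgeR adjusted p = 0.0272) and -0.63 ± 0.06 for sgPHF8-3 (edgeR adjusted p = 6.36e-09). A small insertion or deletion made by Cas9 need not lower the mRNA, so these values check which library carries which guide only in part. Library sgPHF8-1 B stood apart, with 22427 genes with a count against 23035 to 23229 in the others. Of the melanocyte markers, SOX10 stood at 128 to 153 CPM (the count scaled by the library's total) and MITF at 10.8 to 15.5, while PMEL, MLANA, TYR, TYRP1 and DCT were under 1 CPM in every library. Of the markers of dedifferentiated melanoma, AXL ranged from 1470.0 to 1600.0, NGFR from 378 to 646 and VIM from 7850.0 to 8580.0 CPM. EGFR ranged from 100 to 121 and SOX9 from 14.0 to 19.2 CPM, while S100B was under 1 CPM in every library. The 4 immune markers and the 2 endothelial markers measured were under 1 CPM in every library. Keratinocyte markers summed to between 0.727 and 2.38 CPM, and fibroblast markers, with DCN at 0 throughout, to between 17 and 23. NGFR fell under both guides (log2 fold change -0.70 and -0.29), as did SOX10 (-0.18 and -0.11) and KRT14 (-1.10 and -0.90), while VIM rose under both (0.09 and 0.09). Under sgPHF8-1 SOX9 rose (0.25) and PDGFRB fell (-1.86 ± 0.40, SE), and under sgPHF8-3 LUM fell (-0.25). PDGFRB lay near the floor, at 0.657 to 1.05 CPM in sgScr and 0.112 to 0.407 CPM in sgPHF8-1. The part of these marker shifts in the results on ABC genes was not tested.

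Of the 45 members, 28 passed the filter on low counts and were tested. The other 17 had at most 11 counts in any library. ABCB11, ABCC8, ABCG5 and ABCG8 had no count in any library. Levels between genes were compared per kilobase (kb) of the canonical transcript. In sgScr the highest levels belonged to ABCF1, at 69.4 ± 1.25 CPM per kb (SD, n = 3), and ABCE1, at 66.8 ± 0.61 CPM per kb. The lowest and highest libraries were 67.9 and 70.2 for ABCF1 and 66.1 and 67.2 for ABCE1, so these ranges did not overlap, and 93.0% and 92.7% of tested genes lay below the 2 genes. Next came ABCB9 at 26.7 ± 1.2, ABCF2 at 23.8 ± 1.07 and ABCF3 at 22.2 ± 0.923 CPM per kb. With all annotated exons as the length, ABCB9 stood at 6.99 and ABCF3 at 10.6 CPM per kb, so their place in the order depends on the transcript used. Drug pumps were lower: ABCC4 was at 16.5, ABCC1 at 6.60, ABCG2 at 3.78, ABCB1 at 1.32 and ABCB5 at 0.101 CPM per kb in sgScr. ABCC9 stood at 0.679 CPM per kb, a level above 12.4% of the genes tested.

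**Figure D1:**
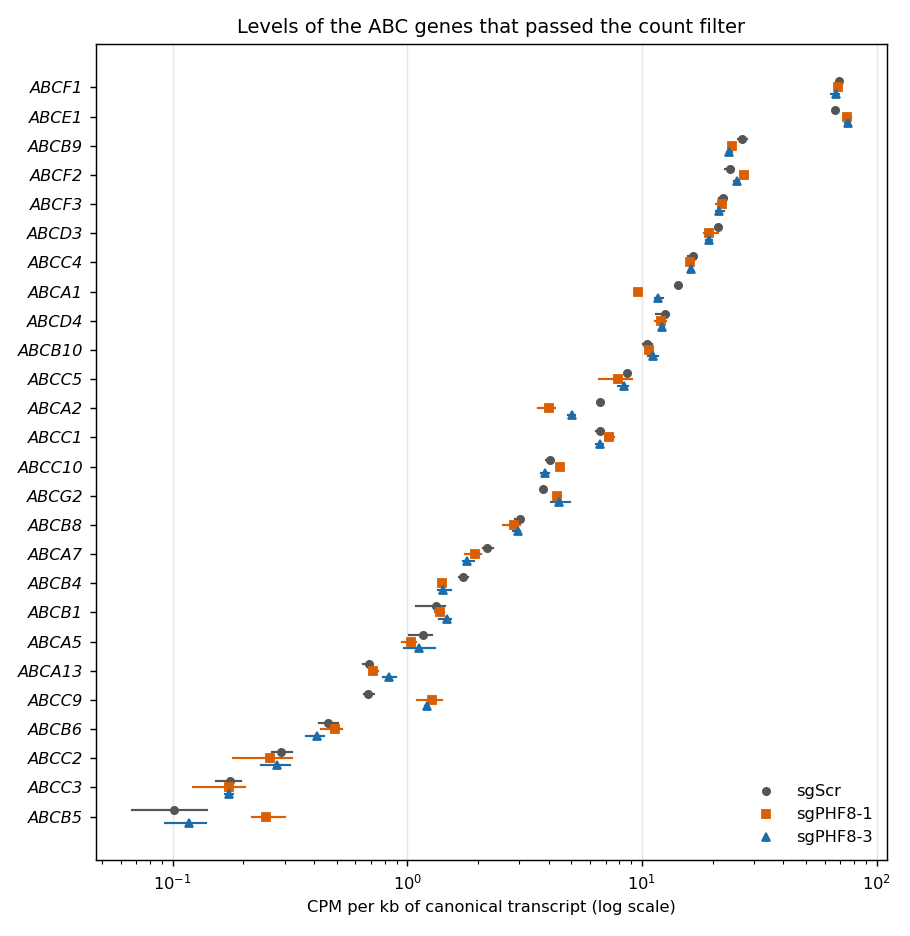
CPM per kb of canonical transcript, on a log axis, for 26 ABC genes that passed the filter on low counts. Points are means of 3 libraries and bars run from the lowest to the highest library for sgScr, sgPHF8-1 and sgPHF8-3. Most genes keep their place in all 3 groups, while ABCA1 and ABCA2 lie left of sgScr and ABCC9 lies right of it under both guides.

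Between sgPHF8-1 and sgScr, 11 of the 28 tested members were called at an edgeR adjusted p under 0.05. Of these, 6 rose, beside 15.2% of all 14614 genes tested that rose, and 5 fell, beside 15.7% that fell. Between sgPHF8-3 and sgScr, 4 members rose, beside 9.48% of all genes, and 5 fell, beside 9.78%. ABCC9, ABCE1 and ABCG2 rose under both guides, beside 6.42% of all genes, and ABCA1, ABCA2, ABCB9 and ABCD3 fell under both, beside 7.26%. The guides share the sgScr libraries, so these counts are not independent. For the mean of both guides 4 members rose, beside 14.7% of all genes, and 6 fell, beside 14.9%. The median log2 fold change of the tested members was -0.02 under sgPHF8-1 and -0.04 under sgPHF8-3, while the medians over all genes were 0.0003 and -0.0008 and both sets of medians lay near 0. Without sgScr A or without sgPHF8-1 A, 7 members were called for sgPHF8-1, and without sgScr B, 4 were called under both guides. DESeq2 called 6 members for sgPHF8-1, 5 for sgPHF8-3 and 5 under both. A calling rule of unadjusted p under 0.05 with a log2 fold change beyond 0.25 in either direction drops calls with smaller changes. These are the calls of ABCB9, ABCC1, ABCC10, ABCD3, ABCE1, ABCF2 and ABCG2, and that of ABCA7 for the mean of both guides. Its gains include ABCB4 under sgPHF8-3 (-0.27) and ABCB5 for the mean of both guides (0.75, edgeR adjusted p = 0.0502). The rule is not among the other fits counted below. Fewer cells of one kind and less RNA per cell cannot be told apart in these bulk libraries.

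**Figure D2:**
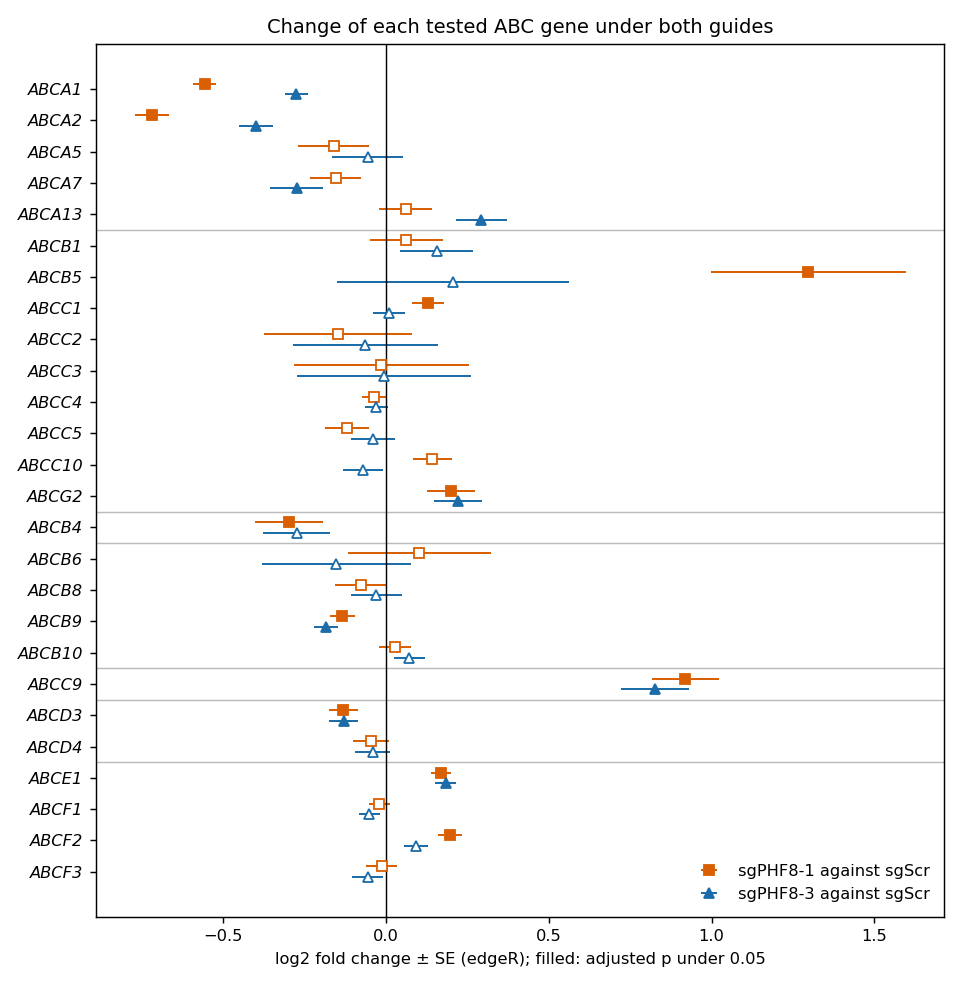
Log2 fold change against sgScr with its SE for 26 tested ABC genes, grouped by role, for sgPHF8-1 and sgPHF8-3. Filled points passed an edgeR adjusted p of 0.05. ABCA1 and ABCA2 lie furthest left and ABCC9 lies near 0.9 under both guides, while ABCB5 lies far right under sgPHF8-1 alone.

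Among the lipid transporters of subfamily A, ABCA1 and ABCA2 fell under both guides, and fell further under sgPHF8-1. ABCA1 loads cellular cholesterol and phospholipid onto apolipoprotein A-I, and ABCA2 is an endolysosomal transporter tied to sterol and sphingolipid handling. ABCA1 (ENSG00000165029, GRCh37 chromosome 9, 107543287 to 107690436, minus strand) had 2711.5, 2727 and 2779.9 normalized counts in sgScr, 1841, 1831.5 and 1909 in sgPHF8-1, and 2227, 2198.5 and 2365 in sgPHF8-3. All control libraries were highest, all sgPHF8-1 libraries were lowest, and no groups overlapped. Under sgPHF8-1 the log2 fold change was -0.56 ± 0.03 (SE; edgeR adjusted p = 2.17e-12), or 0.679 of the control level. For sgPHF8-3 it was -0.28 ± 0.03 (edgeR adjusted p = 1.25e-06), or 0.826 of the control level.

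ABCA2 (ENSG00000107331, chromosome 9, 139901686 to 139923367, minus strand) followed the same order. Its normalized counts were 975, 1028 and 991 in sgScr, 632, 544 and 639 in sgPHF8-1, and 762, 729 and 778 in sgPHF8-3. The groups again did not overlap, with sgPHF8-1 lowest. Log2 fold changes were -0.72 ± 0.05 for sgPHF8-1 (edgeR adjusted p = 6.57e-11) and -0.40 ± 0.05 for sgPHF8-3 (edgeR adjusted p = 2.38e-06). Both genes kept both calls under all 15 other fits tried, including each left-out library.

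**Figure D3:**
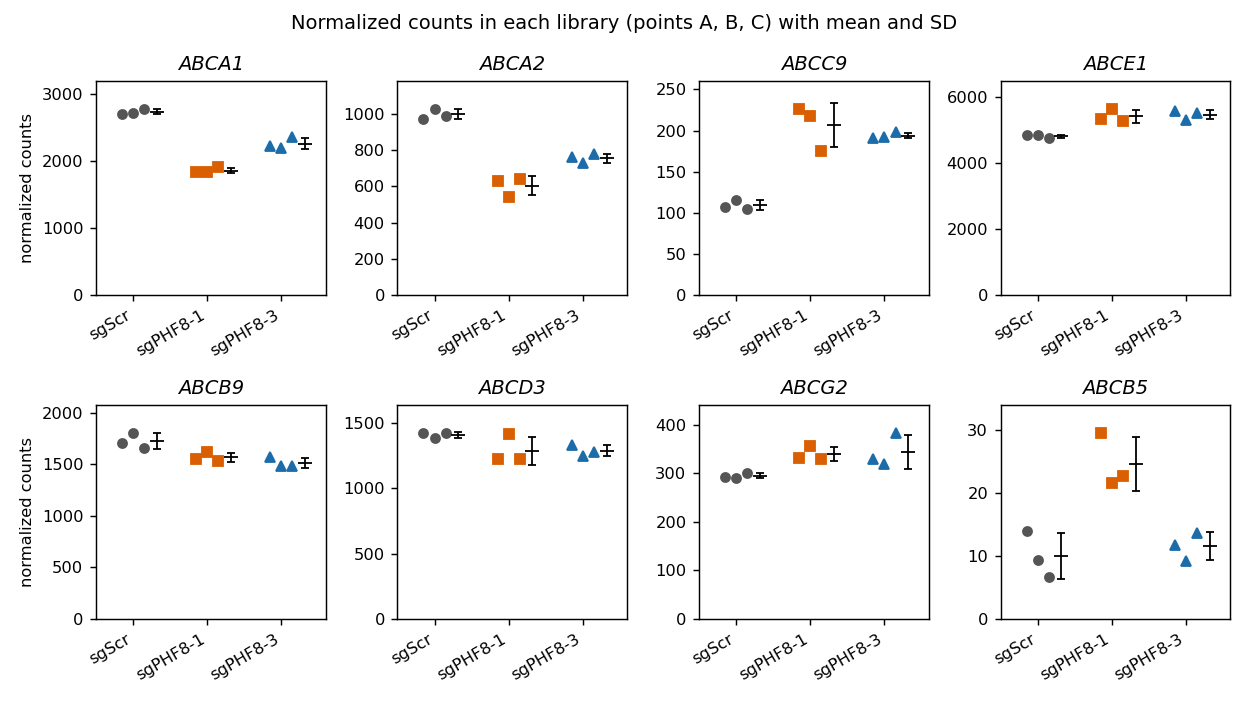
Normalized counts of 8 ABC genes in each of the 9 libraries, with points for replicates A, B and C from left to right and the mean ± SD (n = 3) beside them. Every vertical axis starts at 0. For ABCA1, ABCA2, ABCC9, ABCE1, ABCB9 and ABCG2 no control library overlaps a library of either guide. For ABCB5 only sgPHF8-1 stands clear of sgScr.

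The 250 bases before the start of the canonical transcript of each of these genes are shown because PHF8 is known to act at promoters and the 2 genes moved together. The windows come from RefSeq (GRCh38.p14), read 5′ to 3′ on the gene's strand, and each matched GRCh37 at 1 place. The ABCA2 window lies inside the outer limits of the gene given above, since another transcript begins further upstream. Capitals mark GC boxes (GGGCGG), an E-box (CACGTG) and a direct repeat of the kind bound by LXR receptors (GGTNANNNNNGGTNA), each searched on both strands. All motifs were chosen with the windows of these genes in view, and the letters of the repeat were loosened to take in the ABCA1 match, so the matches and their shares are no result.
ABCA1 (GRCh37 chr9:107690437-107690686, minus strand): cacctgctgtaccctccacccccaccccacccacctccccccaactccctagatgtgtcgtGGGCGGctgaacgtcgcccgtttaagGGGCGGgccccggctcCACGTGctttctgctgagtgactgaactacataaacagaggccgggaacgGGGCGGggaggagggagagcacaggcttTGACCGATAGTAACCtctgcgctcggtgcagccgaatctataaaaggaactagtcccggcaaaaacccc
ABCA2 (GRCh37 chr9:139922690-139922939, minus strand): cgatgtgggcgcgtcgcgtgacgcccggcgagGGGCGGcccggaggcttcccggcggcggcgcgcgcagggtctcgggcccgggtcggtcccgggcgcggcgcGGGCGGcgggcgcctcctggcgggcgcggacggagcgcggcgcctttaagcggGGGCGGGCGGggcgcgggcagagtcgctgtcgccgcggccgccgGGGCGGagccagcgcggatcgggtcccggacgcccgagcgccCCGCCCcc

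The ABCA1 window held 16 CpG pairs, the LXR-type repeat from 69 to 55 bases before the start and an E-box from 147 to 142 bases before it. The ABCA2 window held 54 CpG pairs and neither the repeat nor the E-box, and 2 of its GC boxes overlapped. The observed to expected CpG ratio was 0.68 for ABCA1 and 1.2 for ABCA2, beside a median of 0.56 over 35116 RefSeq windows. A second RefSeq window of ABCA2, further upstream (GRCh37 chr9:139923375-139923624), held 12 CpG pairs with a ratio of 0.45. The repeat was found in 0.533% of all windows, the E-box in 6.34% and the GC box in 42.6%. Windows were listed for 22 of the 28 tested members (31 windows), of which 1, 7 and 20 windows held these motifs. A CCAAT box (CCAAT), also searched on both strands, was found in 11240 of the 35116 windows and in 6 of the 31, none of them shown here. The letters say nothing of whether a factor was bound.

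LXR receptors with their RXR partners switch on ABCA1 when sterols rise, so genes of this pathway were read beside it. All 12 genes of the list were tested. Under sgPHF8-1, 1 rose and 5 fell, beside 15.2% and 15.7% of all genes, and under sgPHF8-3 (9.48% and 9.78% of all genes) none rose, with 0 at an unadjusted p under 0.05 in edgeR and 0 in DESeq2, and 5 fell. The same 5 fell under both guides, beside 7.26% of all genes, and DESeq2 called 4 down under each guide. MYLIP, an LXR target that degrades the LDL receptor, had a log2 fold change of -1.27 ± 0.20 under sgPHF8-1 and -0.69 ± 0.18 under sgPHF8-3 (edgeR adjusted p = 2.1e-05 and 0.00801). RXRA, the obligate partner of LXR, fell by 0.41 and 0.20 on the log2 scale (edgeR adjusted p = 1.51e-06 and 0.00722). SREBF1, an LXR target that drives fatty acid synthesis, changed by -0.26 and -0.28, and LPCAT3, which remodels phospholipids, by -0.28 and -0.23. SCARB1 was the fifth gene to fall, and NPC2, a carrier of cholesterol out of lysosomes, was the 1 that rose under sgPHF8-1 (0.19, edgeR adjusted p = 0.00352). These last genes fall outside the rule for named genes and were chosen after their values were seen. The receptors themselves, NR1H2 and NR1H3, were not called, with log2 fold changes of -0.04 and -0.04 under sgPHF8-1. The list's median was -0.07 and -0.06 beside 0.0003 and -0.0008 over all genes. APOE, a lipid acceptor for ABCA1, had 0.39 and 0.26 and was not called.

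Of the other members of subfamily A, ABCA7 and ABCA13 were called under sgPHF8-3. ABCA7, a phospholipid transporter, had -0.16 ± 0.08 under sgPHF8-1 (edgeR adjusted p = 0.148) and -0.28 ± 0.08 under sgPHF8-3 (edgeR adjusted p = 0.0168), while ABCA13 had 0.06 ± 0.08 (edgeR adjusted p = 0.63) and 0.29 ± 0.08 (edgeR adjusted p = 0.00935). The difference between the guides was not called for either gene. The ABCA7 call was lost without sgScr B, sgPHF8-3 A or sgPHF8-3 B (adjusted p = 0.0972, 0.0725 and 0.0654), and the ABCA13 call without sgScr A or sgPHF8-3 B (0.0588 and 0.0658). DESeq2 called neither (adjusted p = 0.0783 and 0.0578). ABCA5 was not called under either guide.

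Among the pumps of drugs and organic anions, 9 of 12 were tested. Under sgPHF8-1, 3 rose (ABCB5, ABCC1 and ABCG2), beside 15.2% of all genes, and under sgPHF8-3, 1 rose (ABCG2), beside 9.48%. None fell in either comparison, with 0 at an unadjusted p under 0.05 in edgeR and 0 in DESeq2, which called 0 pumps up as well. ABCB1, the classical P-glycoprotein, had 140.3, 105 and 137 normalized counts in sgScr, 137, 135 and 126 in sgPHF8-1, and 148, 131 and 146 in sgPHF8-3. These groups overlapped throughout. ABCB1 had a log2 fold change of 0.06, with a 95% interval from -0.16 to 0.28, under sgPHF8-1 and 0.15, from -0.06 to 0.37, under sgPHF8-3, and the gene was not called.

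ABCG2, the breast cancer resistance protein, rose slightly under both guides. It had 293, 291 and 301 normalized counts in sgScr, 332, 356 and 329.6 in sgPHF8-1, and 330.2, 319 and 384 in sgPHF8-3, so all 6 libraries with a PHF8 guide lay above all controls. Against sgScr the log2 fold change was 0.20 ± 0.07 under sgPHF8-1 (edgeR adjusted p = 0.0398) and 0.22 ± 0.07 under sgPHF8-3 (edgeR adjusted p = 0.0346). Without sgScr A, B or C the adjusted p was 0.102, 0.104 and 0.0655 for sgPHF8-1 and 0.095, 0.101 and 0.0627 for sgPHF8-3, and the call was also lost for sgPHF8-1 without sgPHF8-1 A or B (0.062 and 0.119). For sgPHF8-3 it was lost without sgPHF8-3 C, where the log2 fold change was 0.14 (edgeR adjusted p = 0.231). DESeq2 gave 0.14 and 0.122, and the fit with no filter on low counts 0.0717 and 0.0534.

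ABCC1, the multidrug resistance protein that exports glutathione conjugates, had 789.9, 828 and 769 normalized counts in sgScr, 848, 844 and 918 in sgPHF8-1, and 767, 822 and 813 in sgPHF8-3. The sgPHF8-1 libraries were above all the others, and sgPHF8-3 overlapped sgScr. ABCC1 had a log2 fold change of 0.13 ± 0.05 under sgPHF8-1 (edgeR adjusted p = 0.0446) and 0.01 ± 0.05 under sgPHF8-3 (edgeR adjusted p = 0.933), and the difference between guides was not called (0.12, edgeR adjusted p = 0.122). The sgPHF8-1 call was lost without sgScr A or C (0.12 and 0.168), without sgPHF8-1 A or C (0.054 and 0.228), without sgPHF8-3 B (0.0538), with no filter on low counts (0.102) and in DESeq2 (0.146), among others.

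ABCB5 was a low-count gene that stood out under sgPHF8-1. Its raw counts were 15, 10 and 7 in sgScr, 30, 20 and 22 in sgPHF8-1, and 12, 9 and 13 in sgPHF8-3. In normalized counts these were 13.9, 9.36 and 6.65, then 29.6, 21.6 and 22.7, then 11.8, 9.22 and 13.7. Every sgPHF8-1 library was above every other library, while sgPHF8-3 overlapped sgScr. The log2 fold change was 1.30 ± 0.30 under sgPHF8-1 (edgeR adjusted p = 0.00149) and 0.21 ± 0.36 under sgPHF8-3 (edgeR adjusted p = 0.744), and sgPHF8-1 lay 1.09 ± 0.30 above sgPHF8-3 (edgeR adjusted p = 0.0167). That difference was lost without sgPHF8-1 A or sgPHF8-3 B (adjusted p = 0.101 and 0.0928), and DESeq2 gave no adjusted p for these 3 comparisons.

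ABCC10, a broad drug and conjugate pump, differed between the guides without being called against sgScr. It had 365, 386 and 384 normalized counts in sgScr, 414, 415 and 423 in sgPHF8-1, and 346, 375 and 359 in sgPHF8-3. The sgPHF8-1 libraries were highest and did not overlap either other group, while sgPHF8-3 overlapped sgScr. The log2 difference between sgPHF8-1 and sgPHF8-3 was 0.21 ± 0.06 (edgeR adjusted p = 0.0261). It was lost without sgPHF8-1 A or C (0.064 and 0.0691), without sgPHF8-3 A or C (0.104 and 0.0707), with no filter on low counts (0.0517) and in DESeq2 (0.111). ABCC2, ABCC3, ABCC4 and ABCC5 were not called in any comparison, and the abundant ABCC4 had log2 fold changes of -0.04 ± 0.04 and -0.03 ± 0.04.

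The substrates of the ABCC pumps are often glutathione conjugates, and of 9 tested genes of glutathione synthesis and conjugation 5 rose under sgPHF8-1, beside 15.2% of all genes, and 3 under sgPHF8-3, beside 9.48% (DESeq2 called 5 and 2), while none fell, with 0 at an unadjusted p under 0.05 in edgeR and 0 in DESeq2. MGST1, a membrane glutathione transferase, had log2 fold changes of 0.41 and 0.20 (edgeR adjusted p = 1.62e-06 and 0.00959). GSTO1 had 0.27 and 0.17, and GCLM, the regulatory subunit of the first enzyme of glutathione synthesis, 0.22 and 0.17. The list's median was 0.11 under each guide. Of 6 tested factors known to control efflux pumps, not all reported here, AHR and HIF1A fell under both guides, beside 7.26% of all genes. YBX1 rose under both, beside 6.42%, and DESeq2 called each of these genes the same way under both guides. AHR, the receptor that induces ABCG2, had -0.30 and -0.19 (edgeR adjusted p = 4.24e-07 and 0.000416), and YBX1, a Y-box factor tied to ABCB1, had 0.21 and 0.11. ARNT fell under sgPHF8-1, beside 15.7% of all genes, and DESeq2 called it there but not under sgPHF8-3. NFE2L2 was not called. NR1I2 and NR1I3 were too low to be tested.

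In subfamily B outside the drug pumps, ABCB9 fell under both guides. ABCB9 is a lysosomal peptide transporter related to TAP. It had 1702, 1806 and 1654 normalized counts in sgScr, 1554, 1617 and 1531 in sgPHF8-1, and 1568, 1487 and 1484 in sgPHF8-3. Every control library was above every library with a PHF8 guide. Its log2 fold changes were -0.14 ± 0.04 (edgeR adjusted p = 0.00758) and -0.19 ± 0.04 (edgeR adjusted p = 0.000947), and the first was lost without sgScr B (adjusted p = 0.0863). In the annotation its exons share 1590 bases with ARL6IP4 and 1656 bases with OGFOD2, both on the other strand. ARL6IP4 was listed with 4 to 13 counts and OGFOD2 with 38 to 59. The strand setting of the counting was not given in the sources used here, so reads of these genes cannot be told apart with certainty.

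TAP1 and TAP2, ABC proteins that carry peptides into the endoplasmic reticulum for MHC class I, have no ABC symbol and were read beside ABCB9. TAP1 fell, with log2 fold changes of -0.35 ± 0.04 and -0.39 ± 0.04 (edgeR adjusted p = 3.91e-07 and 1.89e-07), and TAP2 was not called, at 0.01 and 0.01. CFTR was too low to be tested. ABCB4, which exports phosphatidylcholine into bile in the liver, had -0.30 ± 0.10 under sgPHF8-1 (edgeR adjusted p = 0.0288) and -0.27 ± 0.10 under sgPHF8-3 (edgeR adjusted p = 0.0613). The ABCB4 call was lost without sgScr A or B (0.101 and 0.0593), without sgPHF8-1 A or C (0.0743 and 0.0704), with no filter on low counts (0.0572) and in DESeq2 (0.155).

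ABCB6, ABCB8 and ABCB10, transporters of mitochondria or lysosomes, were not called in any comparison by edgeR or DESeq2, with 0 at an unadjusted p under 0.05 in edgeR. Their log2 fold changes lay between -0.15 and 0.10 against sgScr. Of 12 genes of mitochondrial iron-sulfur and heme synthesis, ALAS1, the first enzyme of heme synthesis, rose under both guides (0.22 and 0.22; edgeR adjusted p = 0.000118 and 0.000261). ISCU rose under sgPHF8-1. The 2 that rose under sgPHF8-1 and the 1 that rose under both guides stand beside 15.2% and 6.42% of all genes, shares near the background. None fell, beside 15.7% and 9.78% of all genes that fell under sgPHF8-1 and sgPHF8-3, although 2 under sgPHF8-1 and 1 under sgPHF8-3 were below 0 at an unadjusted p under 0.05 in edgeR, and DESeq2 called 0.

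ABCC9 had the largest increase of the members called under both guides. It encodes SUR2, the regulatory subunit that joins a potassium pore to form an ATP-sensitive channel. ABCC9 (ENSG00000069431, chromosome 12, 21950323 to 22095477, minus strand) had 107, 116 and 104 normalized counts in sgScr, 226, 217 and 176 in sgPHF8-1, and 191, 193 and 198 in sgPHF8-3. All 6 libraries with a PHF8 guide lay above all controls, while both guides overlapped each other. Log2 fold changes of ABCC9 were 0.92 ± 0.10 (edgeR adjusted p = 1.22e-07) and 0.83 ± 0.10 (edgeR adjusted p = 1.86e-06), or 1.89 and 1.77 times the control level, and both calls held under all 15 other fits. The difference between the guides was 0.09, with a 95% interval from -0.09 to 0.28. The window before the start of its canonical transcript is shown for comparison with the windows of the 2 genes that fell, with its 1 GC box in capitals. It lies inside the outer limits of the gene given above.
ABCC9 (GRCh37 chr12:22094361-22094610, minus strand): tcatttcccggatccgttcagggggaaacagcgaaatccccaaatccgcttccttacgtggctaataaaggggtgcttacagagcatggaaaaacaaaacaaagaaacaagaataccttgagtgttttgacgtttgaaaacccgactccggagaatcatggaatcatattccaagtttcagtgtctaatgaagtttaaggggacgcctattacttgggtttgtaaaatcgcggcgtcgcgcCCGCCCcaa

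The ABCC9 window held 15 CpG pairs with an observed to expected ratio of 1.13, near that of ABCA2, and 46.0% G and C beside 61.6% and 85.6% in the windows of ABCA1 and ABCA2. KCNJ8, the pore usually paired with SUR2, had log2 fold changes of 0.71 ± 0.28 and 0.29 ± 0.30 and was not called (edgeR adjusted p = 0.0562 and 0.551). KCNJ11 was too low to be tested, as was ABCC8, the other sulfonylurea receptor.

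In subfamily D, ABCD3, a peroxisomal carrier of branched-chain acyl-CoA, fell under both guides by a small amount. It had 1422, 1387 and 1428 normalized counts in sgScr, 1228, 1415 and 1228 in sgPHF8-1, and 1334, 1252.5 and 1281 in sgPHF8-3. Library sgPHF8-1 B lay within the control range, whereas the other 5 libraries with a PHF8 guide lay below it. On the log2 scale the change was -0.13 ± 0.04 under each guide (edgeR adjusted p = 0.024 and 0.0369). The sgPHF8-1 call was lost without sgScr A or C (0.0654 and 0.0839), without sgPHF8-1 A or C (0.155 and 0.13) and in DESeq2 (0.0827), and the sgPHF8-3 call without sgScr A, B or C (0.0994, 0.0648 and 0.117), without sgPHF8-3 B or C (0.162 and 0.0742) and in DESeq2 (0.109).

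ABCD4, which works in lysosomal cobalamin export, had -0.05 and -0.04 and was not called. Of 10 genes of the peroxisome membrane and fatty acid oxidation, ACSL1, an acyl-CoA synthetase, fell under both guides (-0.21 and -0.19, edgeR adjusted p = 0.000974 and 0.00335). PEX3 and PEX19, which insert peroxisomal membrane proteins, rose under sgPHF8-1, of which DESeq2 called PEX19. The 2 that rose and 1 that fell under sgPHF8-1 stand beside 15.2% and 15.7% of all genes, and the 1 that fell under both guides beside 7.26%, so these shares lie near the background. Of 8 genes of cobalamin handling, MMADHC rose under both guides (0.23 and 0.14, edgeR adjusted p = 1.77e-06 and 0.00144). Under sgPHF8-1, CD320, the receptor that takes up cobalamin, also rose (0.19), and LMBRD1, the partner of ABCD4, and MMUT fell (-0.24 and -0.19, edgeR adjusted p = 0.0496 and 0.0441), while DESeq2 called none down. These counts of 2 in each direction stand beside 15.2% and 15.7% of all genes.

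Among the ribosome-acting members, ABCE1 rose under both guides. ABCE1 splits the ribosome after termination so that its subunits can be used again. ABCE1 (ENSG00000164163, chromosome 4, 146019440 to 146050676, plus strand) had 4831, 4841 and 4756 normalized counts in sgScr, 5328.5, 5629.6 and 5263 in sgPHF8-1, and 5573, 5301 and 5504.5 in sgPHF8-3. All 6 libraries with a PHF8 guide lay above all controls, and the guides overlapped each other. The log2 fold change was 0.17 ± 0.03 and 0.18 ± 0.03 (edgeR adjusted p = 0.00016 and 0.000132), a rise to 1.12 and 1.14 times the control level that held under all 15 other fits but is too small for the rule with a fold threshold. Its exons share 276 bases with OTUD4 on the other strand, which had 32% of the count of ABCE1 and was not called (-0.02 and 0.06). The window before the start of its canonical transcript, whose last bases lie inside the outer limits of the gene, is shown with a cAMP response element (TGACGTCA) in capitals. These letters, chosen with this window in view, were found in 1.65% of all RefSeq windows.
ABCE1 (GRCh37 chr4:146019213-146019462, plus strand): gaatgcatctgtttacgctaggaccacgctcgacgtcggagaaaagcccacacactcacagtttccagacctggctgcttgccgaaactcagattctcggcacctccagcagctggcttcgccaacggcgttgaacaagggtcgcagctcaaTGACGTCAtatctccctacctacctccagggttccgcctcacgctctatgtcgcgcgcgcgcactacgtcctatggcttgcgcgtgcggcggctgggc

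ABCF1, an initiation factor partner, had 4291, 4429.8 and 4409 normalized counts in sgScr, 4303, 4292.5 and 4346 in sgPHF8-1, and 4247, 4378 and 4037 in sgPHF8-3. The groups overlapped, and the log2 fold change was -0.02 (95% interval -0.08 to 0.04) and -0.05 (-0.12 to 0.01). ABCF2 had 0.20 ± 0.04 under sgPHF8-1 (edgeR adjusted p = 0.000136), a call that held under all 15 other fits but not under the rule with a fold threshold, and 0.09 ± 0.04 under sgPHF8-3 (edgeR adjusted p = 0.0771). The difference between the guides was not called for ABCF2, and ABCF3 was called in no comparison.

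Of 10 genes that work with ABCE1 in termination, rescue and initiation, 5 rose under both guides, beside 6.42% of all genes (DESeq2 called 4 up under sgPHF8-1 and 2 under sgPHF8-3) and none fell under both. ETF1, the release factor that recognises stop codons, had 0.21 ± 0.03 and 0.13 ± 0.03 (edgeR adjusted p = 5.86e-06 and 0.00262). EIF2S2, a subunit of the factor that brings initiator tRNA, had 0.18 and 0.14, and PELO and HBS1L, which rescue stalled ribosomes, had 0.12 and 0.13, and 0.12 and 0.12. Under sgPHF8-1 GCN1 and EIF2AK4 fell, by 0.10 and 0.08 on the log2 scale, beside 15.7% of all genes, and DESeq2 called GCN1 of the 2. Under sgPHF8-3 they had -0.03 and -0.06 and were not called, and the difference between the guides was not called for either (edgeR adjusted p = 0.213 and 0.738). The list's median was 0.10 and 0.08.

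**Figure D4:**
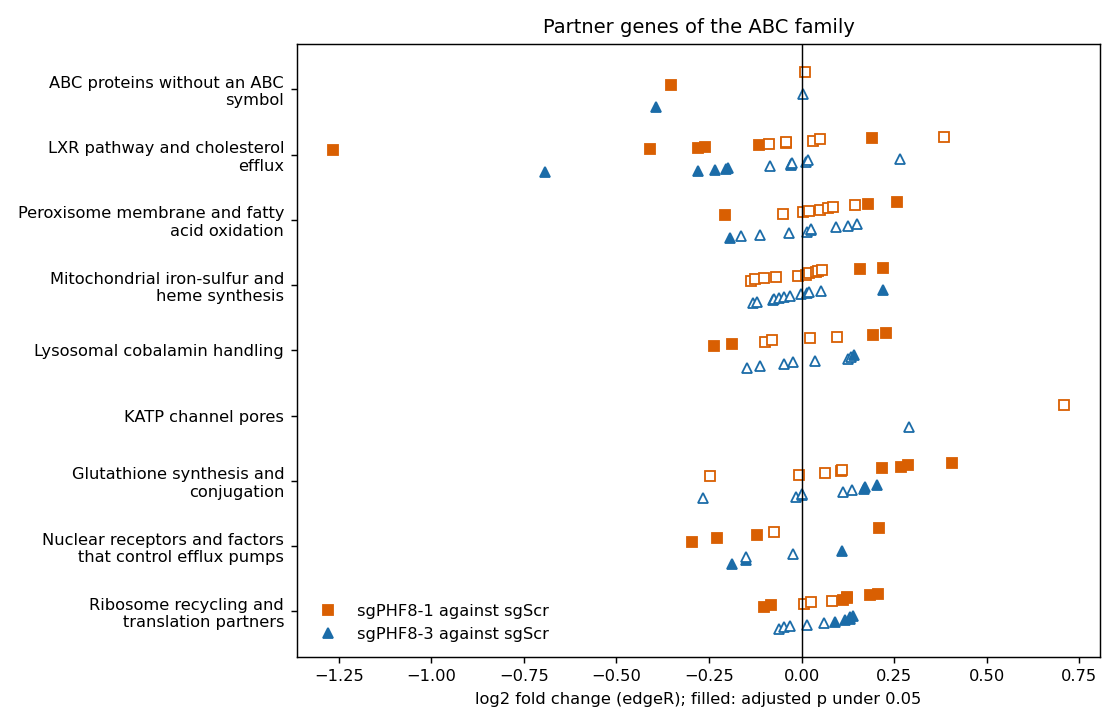
Log2 fold change against sgScr of 69 tested partner genes in 9 lists, with squares for sgPHF8-1 and triangles for sgPHF8-3. Filled points passed an edgeR adjusted p of 0.05. In the LXR list the filled points lie left of 0 with 1 exception under sgPHF8-1, and in the glutathione list all filled points lie right of 0.

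Compared directly, the 2 guides differed in 4 of 28 members. ABCB5 and ABCC10 were higher under sgPHF8-1, beside 4.74% of all genes that were higher, and ABCA1 and ABCA2 were lower, beside 5.83% that were lower. The log2 difference between sgPHF8-1 and sgPHF8-3 was -0.28 ± 0.04 for ABCA1 (edgeR adjusted p = 5.66e-06) and -0.32 ± 0.06 for ABCA2 (edgeR adjusted p = 0.000403), and both held under all 15 other fits. These 2 were the members left in the count without sgPHF8-1 A and in DESeq2. PHF8 mRNA itself was 0.48 ± 0.06 higher under sgPHF8-1 than under sgPHF8-3 (edgeR adjusted p = 3.86e-06). The guide with the smaller drop in PHF8 mRNA was thus the one with the larger drop in ABCA1 and ABCA2. An edit by Cas9 need not lower the mRNA, so this order need not be the order of PHF8 protein loss. Protein was not measured in these libraries, but the paper reports efficient knockout with both guides in this line by Western blot.

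The 4 sterol transporters of subfamily G were too low to be tested. ABCG1, which passes cholesterol to high-density lipoprotein and is, like ABCA1, an LXR target, had 0, 1.87 and 1.90 normalized counts in sgScr, 0, 1.08 and 0 in sgPHF8-1, and 0, 1.02 and 0 in sgPHF8-3, so no change was detectable at this depth. ABCG4 had at most 3 counts. Of the left-out rows, ABCA11P had 15 to 24 counts and was not called.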

How the data were processed

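RNA from 9 SKMEL-147 cultures was depleted of ribosomal RNA, made into ScriptSeq libraries and sequenced as paired ends. The authors aligned reads to hg19 with STAR and deposited raw read counts per gene; HTSeq, Picard and DESeq2 are named in the submitters' processing notes, and strand settings are not given in the sources used here. The deposited normalized counts are a signal equal to the count divided by a DESeq2 size factor, and all 57736 rows gave back whole counts within 0.01. Both tables listed all 45 members. Coordinates, strands and lengths came from GENCODE (GRCh37).

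All genes were fitted together with edgeR 4.0.16 in R 4.3.3 (quasi-likelihood F test, two-sided, TMM factors, filterByExpr, 3 groups in 1 fit, no covariate), with Benjamini-Hochberg adjustment over 14614 genes and calls at an adjusted p under 0.05. Folds and SE are on the log2 scale. The steps were tested on simulated data. The members and lists were chosen with earlier results of these data known. Members named in every library were those called the same way under both guides, those called between the guides, and set genes, some of which are not reported here; partner lists name up to 4 genes called under both guides, ranked by size of change.

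Alternatives were RLE factors, DESeq2 1.42.0, no filter on low counts, CPM above 1 in 3 libraries, only the groups compared, a replicate block, the rule of unadjusted p under 0.05 with a log2 fold change beyond 0.25, and leaving out each library. Within groups, counts of library pairs differed by a chi-square per gene of 1.31 to 3.87, and none was a duplicate. Depth (17366120 to 19838142 counts) limits the genes with few counts.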

Additional observations from a re-analysis of the deposited data

Results flagged for a closer look

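The following 4 members differed between the 2 guides by a direct test (edgeR, sgPHF8-1 minus sgPHF8-3 on the log2 scale). ABCA1 differed by -0.28 and ABCA2 by -0.32, both lower under sgPHF8-1. ABCB5 differed by 1.09 and ABCC10 by 0.21, both higher under sgPHF8-1. For ABCB5 the difference rests on raw counts of 20 to 30 against 9 to 13.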

How the results depend on the processing

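Of the single-gene values under the alternatives, 79 lost the call, 13 gained one and 1035 kept their side of the threshold. Of the last, 15 values, uncalled before and after (lowest adjusted p 0.721 under the alternative), changed sign, and no called value did. DESeq2 called 6 members for sgPHF8-1 in place of 11, 5 for sgPHF8-3 in place of 9, and 2 between the guides in place of 4. The rule of unadjusted p with a fold threshold called 5 members for sgPHF8-1, 5 for the mean of both guides in place of 10, 4 under both guides in place of 7, and 6 partner genes for the mean in place of 28; here the fold threshold removes small changes by its construction, and for DESeq2 the cause was not tested. Leaving out 1 library at a time gave 7 to 11 members for sgPHF8-1 (7 without sgScr A or sgPHF8-1 A), 6 to 10 for sgPHF8-3, 2 to 4 between the guides (2 without sgPHF8-1 A), 8 to 12 for the mean, 4 to 7 under both guides (4 without sgScr B), and 25 to 29 partner genes. Without sgPHF8-1 B, which stood apart, 10 members were called for sgPHF8-1. The replicate letters did not pair the libraries (correlations of deviations between -0.171 and 0.148); with the replicate block 10, 9, 4 and 10 members were called for sgPHF8-1, sgPHF8-3, between the guides and the mean, and 1 call was lost, that of ABCC1 under sgPHF8-1 (adjusted p = 0.0512). DESeq2 gave no adjusted p for ABCB5 under either guide or between the guides, and these were left out of the counts; for the mean of both guides it gave 0.191. Depth limits ABCB5 and the 17 members not tested.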
